A study of Mus musculus with 48 samples.

Results

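The mouse genes Cntfr, Galnt16, Astn2, Tmcc1 and Mroh2a were examined for DNA methylation in the adult amygdala after maternal separation (MS). These 5 genes were chosen because 1 locus of each differed between MS mice and undisturbed controls (C) in these same counts. All differences between MS and C at these genes are therefore a description and carry no test. A locus is a stretch of the genome in which methylated DNA was captured. A locus was taken as a member when it overlapped the gene or the 10 kb on either side, in the GRCm38 assembly with the GENCODE M21 gene models. This gave 67 of the 187695 loci of the series, namely 16 at Cntfr, 4 at Galnt16, 30 at Astn2, 4 at Tmcc1 and 13 at Mroh2a.

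In mammals, DNA methylation is placed mostly on the cytosine of a CpG dinucleotide. It is found over most of the genome, and the CpG-rich start sites of active genes are usually free of it. Methylation inside a gene, in introns and exons, is common in the brain and cannot be read as silencing. The methyl-CpG-binding domain (MBD) of a binding protein pulls down methylated fragments, so a count at a locus grows with its methylation, its number of CpGs and its number of copies in the genome. The 5 genes do not form a pathway. Cntfr encodes the receptor subunit that binds ciliary neurotrophic factor and passes the signal to neurons and glia with the shared subunits Lifr and Il6st. Galnt16 encodes an enzyme of the Golgi that starts mucin-type O-glycosylation. Astn2 encodes astrotactin 2, a membrane protein of neurons with a role in glia-guided migration and in trafficking of surface proteins. Tmcc1 encodes a protein of the endoplasmic reticulum membrane. Mroh2a belongs to the maestro heat-like repeat family, whose function is little known.

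The tissue was the amygdala of male mice on a C57BL/6 background (C57BL/6N in the methods of the study), 4 months of age, with 1 library per mouse and both hemispheres blended. The mice carried a constitutive inactivation of Tph2, the gene of the neuronal serotonin-making enzyme, as Tph2+/+ (wildtype), Tph2+/- (heterozygous) or Tph2-/- (null). MS pups spent 3 h of each day away from the dam, beginning on postnatal day 2 and ending on day 15, while C litters stayed with theirs. Each of the 3 genotypes had a C and an MS group, written as in Tph2+/+ C, and each of these 6 groups held 8 mice. All of them were offspring of Tph2+/- parents, lived singly after weaning and passed behavioral tests before tissue was taken. The inactivation is lifelong and not limited to a brain region or cell type. MS was given to litters, and the labels do not say which mice shared a litter, so spread between mice may be too small a yardstick for MS.

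Depth ranged from 7.72 to 14.1 Mcounts (counts with the prefix mega) per library. The Tph2-/- MS replicates 3 and 7, which had the lowest totals of their group, were left out, so 46 libraries were compared (24 C and 22 MS). The labels number the samples S1 to S48 in runs of a single condition: C held S1 to S17 and S42 to S48, and MS held S18 to S41. No run held both conditions, so MS and sample order cannot be told apart. Because the data are from bulk DNA, a change of methylation and a change of the mix of cells cannot be told apart either, and the amygdala label could not be checked against cell markers. Levels are given as counts per Mcount (CPM) after TMM normalisation, which scales libraries by a trimmed mean of log ratios, and levels of different loci are compared only as CPM per kb. Log2 fold changes come from a quasi-likelihood fit in edgeR over all loci, and a locus was called by the criteria of the study, namely a nominal p below 0.01 together with a log2 fold change of more than 0.2 in size.

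For each gene the member locus with the smallest p in any MS contrast is called its index locus. In all 5 genes this was the contrast of MS with C averaged over genotypes. The CpG-richest 300 bases of 3 index loci are shown, because MBD capture reads CpGs. They are written from 5′ to 3′ on the plus strand of GRCm38 with every CpG in capitals.

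Cntfr, chr4:41681791-41682090: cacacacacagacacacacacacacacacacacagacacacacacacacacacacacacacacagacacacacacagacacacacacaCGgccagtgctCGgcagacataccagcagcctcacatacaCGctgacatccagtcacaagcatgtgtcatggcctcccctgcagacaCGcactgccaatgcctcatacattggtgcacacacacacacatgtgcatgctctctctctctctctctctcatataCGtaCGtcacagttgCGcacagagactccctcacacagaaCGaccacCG
Astn2, chr4:66044568-66044867: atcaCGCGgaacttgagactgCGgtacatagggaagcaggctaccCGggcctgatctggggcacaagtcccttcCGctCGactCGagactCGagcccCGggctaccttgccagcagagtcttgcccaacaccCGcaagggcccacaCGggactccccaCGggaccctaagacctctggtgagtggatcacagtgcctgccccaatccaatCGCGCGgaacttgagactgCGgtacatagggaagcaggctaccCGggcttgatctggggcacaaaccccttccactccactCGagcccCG
Mroh2a, chr1:88224590-88224889: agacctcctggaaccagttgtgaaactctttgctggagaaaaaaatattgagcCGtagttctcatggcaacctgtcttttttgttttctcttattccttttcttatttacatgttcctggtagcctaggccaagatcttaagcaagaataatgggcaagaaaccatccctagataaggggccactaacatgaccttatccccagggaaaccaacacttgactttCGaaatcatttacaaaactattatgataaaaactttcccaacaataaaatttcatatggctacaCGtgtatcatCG

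The stretches held 9 CpGs at Cntfr, 19 at Astn2 and 4 at Mroh2a. Over the whole locus the CpG density was 1.44 per 100 bp at Cntfr, 1.70 at Galnt16, 2.61 at Astn2, 1.65 at Tmcc1 and 0.386 at Mroh2a, beside a median of 1.82 over all loci. The Astn2 locus had 2821 further alignments elsewhere in the genome (at least 95% identity over at least 50% of its length). The other 4 index loci had none. At Mroh2a the CpGs were sparse, and only 1.97% of all loci had a lower density.

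Cntfr, the neurotrophic factor receptor gene, lies on chromosome 4 from 41657498 to 41697089 on the minus strand. Its index locus, the 4th of 16 counted from 5′ to 3′, was intronic (chr4:41681337-41682307, 971 bp) and its count was 12 to 90 per library. In Tph2+/+ mice the lowest, median and highest CPM were 1.85, 2.94 and 3.85 in C, and 2.67, 4.33 and 4.78 in MS. In Tph2+/- mice they were 1.35, 2.95 and 4.47 in C, and 3.19, 4.16 and 5.89 in MS. The Tph2-/- values were 1.19, 2.47 and 3.08 in C, and 2.88, 4.14 and 6.24 in MS. The MS mice were the higher group in every genotype, with overlapping ranges. Of the 22 MS libraries 21 lay above the C median and 8 above every C library. The ratio of the MS to the C mean was 1.53, and the log2 fold change was 0.63 (SE 0.11) over genotypes, 0.49 (SE 0.19) in Tph2+/+, 0.54 (SE 0.19) in Tph2+/- and 0.86 (SE 0.20) in Tph2-/- mice.

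The rest of Cntfr did not share the size of this difference. The neighbours of the index locus, the 3rd and 5th loci, differed by 0.38 (SE 0.18) and 0.18 (SE 0.15). Of the 16 loci 15 had an MS value above 0 and 1 below, with a median of 0.11. With the libraries S18 to S26 left out, 6 lay above 0 and 10 below, and the median was -0.03, whereas the index locus kept 0.60. The locus with the most counts, the 11th, covers a coding exon at 6.26 CPM and differed by 0.09 (SE 0.09). Both upstream loci also lie in the neighbouring gene Il11ra1, which encodes an interleukin receptor of the same cytokine family.

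Galnt16, the O-glycosylation enzyme gene, lies on chromosome 12 from 80518277 to 80630972 on the plus strand. Only 2.61% of the gene with its flanks was covered by loci. The index locus, the 1st of 4, was intronic and the nearest to the gene start (chr12:80524853-80525617, 765 bp). Counts there were low, with 2 to 40 per library. In Tph2+/+ mice the lowest, median and highest CPM were 1.19, 2.06 and 3.30 in C, and 0.436, 1.02 and 2.26 in MS. In Tph2+/- mice they were 0.996, 2.22 and 2.76 in C, and 0.193, 0.811 and 1.16 in MS. In Tph2-/- mice they were 1.11, 2.19 and 3.38 in C, and 1.15, 1.63 and 2.61 in MS. The MS groups were lower, by most in Tph2+/- and by least in Tph2-/- mice, and all 3 pairs of ranges overlapped. The log2 fold change was -0.82 (SE 0.16) over genotypes, -0.79 (SE 0.27) in Tph2+/+, -1.40 (SE 0.29) in Tph2+/- and -0.28 (SE 0.28) in Tph2-/- mice. Of the 22 MS libraries 19 lay below the C median and 10 below every C library.

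The other 3 Galnt16 loci lie farther into the gene. Their MS values were -0.03 (SE 0.13), 0.04 (SE 0.10) and -0.01 (SE 0.12). The 2nd and 3rd cover coding exons and overlap the gene model 4933406B15Rik. Summed over the 4 loci, Tph2+/+ mice held 9.997 ± 0.484 CPM (C) and 9.60 ± 0.872 CPM (MS; SD, n = 8 each). The mean MS difference of the sum over genotypes was -0.11 on the log2 scale with the index locus and 0.01 without it.

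Astn2, the astrotactin gene, spans 1023809 bp of chromosome 4 from 65380803 to 66404611 on the minus strand, and 2.79% of it with its flanks was covered by its 30 loci. Its index locus, the 12th, was intronic (chr4:66044102-66045288, 1187 bp), with at least 32 counts in every library, and 76.1% of it was marked as repeats. In Tph2+/+ mice the lowest, median and highest CPM were 2.97, 4.60 and 8.13 in C, and 4.95, 7.73 and 9.05 in MS. In Tph2+/- mice they were 3.19, 5.29 and 6.44 in C, and 5.79, 6.26 and 11.1 in MS. The Tph2-/- values were 5.14, 6.27 and 7.53 in C, and 4.76, 8.39 and 14.8 in MS. The MS medians were higher in every genotype, and the ranges overlapped in all of them. The log2 fold change was 0.48 (SE 0.10) over genotypes, with 0.56 (SE 0.16) in Tph2+/+, 0.44 (SE 0.17) in Tph2+/- and 0.45 (SE 0.17) in Tph2-/- mice.

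The Astn2 loci fell into those with copies elsewhere in the genome and those without. The 8 loci with copies (92 to 2821 further alignments) were 64.6 to 85.4% repeats and had a median CpG density of 2.58 per 100 bp. All 8 had MS values above 0, with a median of 0.34, and 4 were called as higher, where 2.28% of all loci were. Reads of such loci can come from other copies, and how such reads were counted is not given in the sources used here. The other 22 loci had a median density of 1.17, 9 values above 0 and 13 below, a median of -0.10, and 2 loci called as lower, where 1.35% of all loci were. Both counts are on the contrast that chose the genes. Without S18 to S26, the loci with copies had 4 values above and 4 below 0 with a median of -0.0042, and the index locus differed by 0.29 over genotypes and by 0.05 in Tph2-/- mice. With the CpG slope of each library as a covariate their median was 0.02, and the index locus differed by 0.30.

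Among the loci without copies, the 4th (chr4:66316025-66316932, intronic) and the 5th (chr4:66231897-66232584, intronic) were the 2 called. The 5th differed by -0.40 (SE 0.15) over genotypes. At the 4th, the lowest, median and highest CPM were 1.5, 2.76 and 3.75 in Tph2+/+ C, and 0.945, 1.85 and 3.94 in Tph2+/+ MS. In Tph2+/- mice they were 1.20, 2.27 and 3.15 in C, and 1.12, 1.94 and 2.72 in MS. In Tph2-/- mice they were 1.55, 2.55 and 3.08 in C, and 0.694, 1.03 and 1.44 in MS. The Tph2-/- groups did not overlap at this locus, and the other pairs did. That contrast called 1.48% of all loci. The share of all loci without overlap was not counted, so nothing is read from the lack of overlap. The log2 fold change was -0.58 (SE 0.14) over genotypes and -1.22 (SE 0.27) in Tph2-/- mice. The locus with the highest level, the 3rd, held 12.7 CPM per kb and has 991 further alignments. Trim32, which encodes a ubiquitin ligase and sits inside an Astn2 intron, was covered by the 23rd locus, which differed by 0.10 (SE 0.08).

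Tmcc1, the endoplasmic reticulum gene, lies on chromosome 6 from 116018611 to 116193486 on the minus strand. Its index locus, the 3rd of 4, covers the last coding exon and the start of the untranslated region that follows it (chr6:116021799-116022648, 850 bp), with 6 to 76 counts per library. In Tph2+/+ mice the lowest, median and highest CPM were 2.52, 3.31 and 6.27 in C, and 0.533, 1.77 and 3.08 in MS. In Tph2+/- mice they were 2.49, 3.598 and 4.66 in C, and 1.61, 2.69 and 4.08 in MS. The Tph2-/- values were 1.89, 3.04 and 4.83 in C, and 1.04, 1.92 and 2.93 in MS. MS mice were lower in every genotype, with overlapping ranges, and 21 of the 22 MS libraries lay below the C median. The log2 fold change was -0.70 (SE 0.13) over genotypes, -1.03 (SE 0.23) in Tph2+/+, -0.40 (SE 0.22) in Tph2+/- and -0.68 (SE 0.25) in Tph2-/- mice.

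The other 3 Tmcc1 loci had values above 0. The upstream locus nearest the gene start was higher by 0.31 (SE 0.12) and has 5 further alignments. The 2nd locus differed by 0.09 (SE 0.14) and the downstream one by 0.06 (SE 0.12). Without S18 to S26 the index locus differed by -0.52.

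Mroh2a lies on chromosome 1 from 88226986 to 88262289 on the plus strand, between the Ugt1a gene cluster and Hjurp. Its loci were unlike those of the other genes. They joined into an almost continuous stretch, covering 87.6% of the gene with its flanks and 95.04% of the CpGs there, against 2.15 to 27.2% of the length at the other 4 genes. The widest had 13973 bp and their median width was 2363 bp, beside 916 bp over all loci. Their median level was 6.08 CPM per kb beside 2.76 over all loci, at a median CpG density of only 1.02 per 100 bp.

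The Mroh2a index locus, the 4th of 13, lies upstream of the gene start (chr1:88223444-88225514, 2071 bp), with 22 to 142 counts per library. In Tph2+/+ mice the lowest, median and highest CPM were 5.14, 7.80 and 12.5 in C, and 2.40, 4.64 and 6.57 in MS. In Tph2+/- mice they were 4.48, 6.33 and 10.1 in C, and 2.31, 5.07 and 8.23 in MS. In Tph2-/- mice they were 5.01, 5.83 and 8.74 in C, and 1.53, 3.31 and 4.30 in MS. The Tph2-/- groups did not overlap and the other pairs did, at a locus picked for its MS difference. The share of all loci without overlap was not counted, so nothing is read from this. The log2 fold change was -0.73 (SE 0.14) over genotypes, -0.86 (SE 0.23) in Tph2+/+, -0.31 (SE 0.23) in Tph2+/- and -1.01 (SE 0.26) in Tph2-/- mice. No C library lay below the MS median, and 12 MS libraries lay below every C library.

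All 13 Mroh2a loci were lower in MS, from -0.16 to -0.74 with a median of -0.26. The sparse loci upstream and near the gene start differed most: the 2nd locus, with 0.197 CpG per 100 bp, differed by -0.74 (SE 0.20), and the 7th by -0.61 (SE 0.21). The widest intragenic locus, the 8th, is 12098 bp wide and held 91.4 CPM, and its difference was -0.16 (SE 0.06). All 13 were below 0 under each of the 11 alternative settings, which called 3 to 13 of them (3 without S18 to S26, 5 with the CpG slope as a covariate). Summed over the 13 loci, Tph2+/+ mice held 386 ± 60.2 CPM in C and 306 ± 37.96 in MS (SD, n = 8 each), Tph2+/- mice 367 ± 41.8 and 338 ± 52.2 (n = 8 each), and Tph2-/- mice 358 ± 38.3 (n = 8) and 302 ± 55.3 (n = 6).

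The lower values did not stop at the window of the gene. The 3 loci next upstream and the 11 loci next downstream, over Trpm8, were also lower in MS, from -0.03 to -0.60. The 9 loci farther downstream, from 88315424 to 88387949, ranged from -0.10 to 0.04 with a median of -0.02. Their median level was 2.82 CPM per kb. The ends of these stretches were set after the values were seen.

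**Figure D1:**
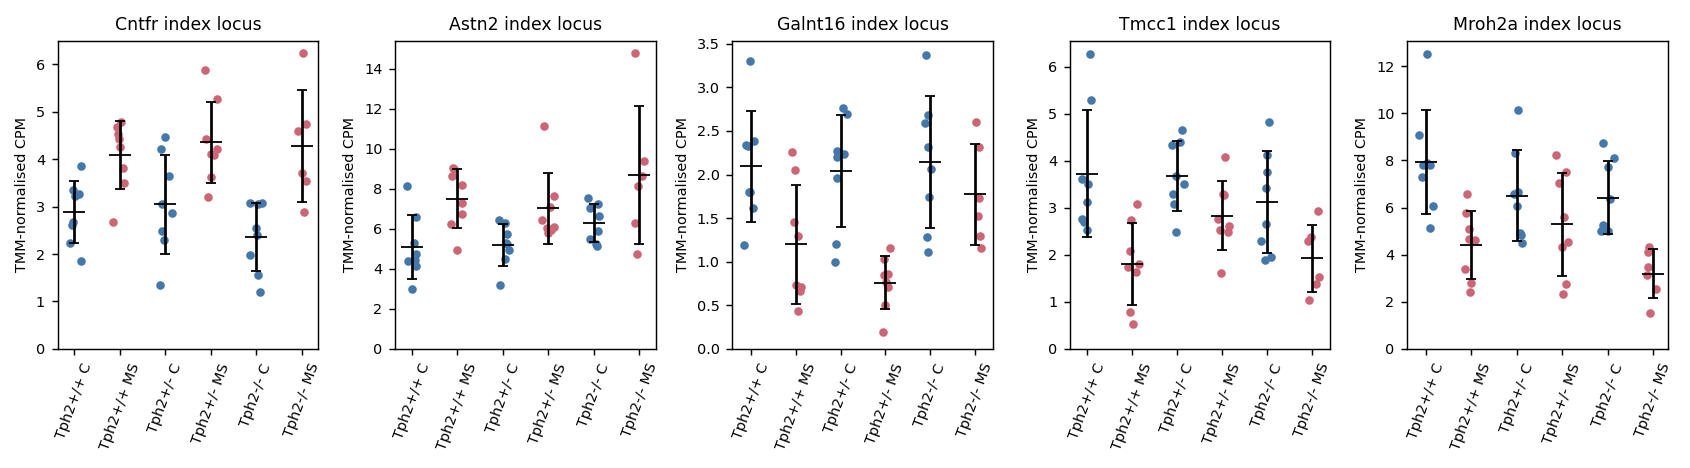
Level of each index locus by group, in TMM-normalised CPM on a linear axis from 0. Points are libraries (blue C, red MS), the long dash is the group mean and the bars are 1 SD. The MS points sit higher at Cntfr and Astn2 and lower at Galnt16, Tmcc1 and Mroh2a, with overlap in all pairs but Mroh2a in Tph2-/- mice. All these loci were picked for their MS difference.

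**Figure D2:**
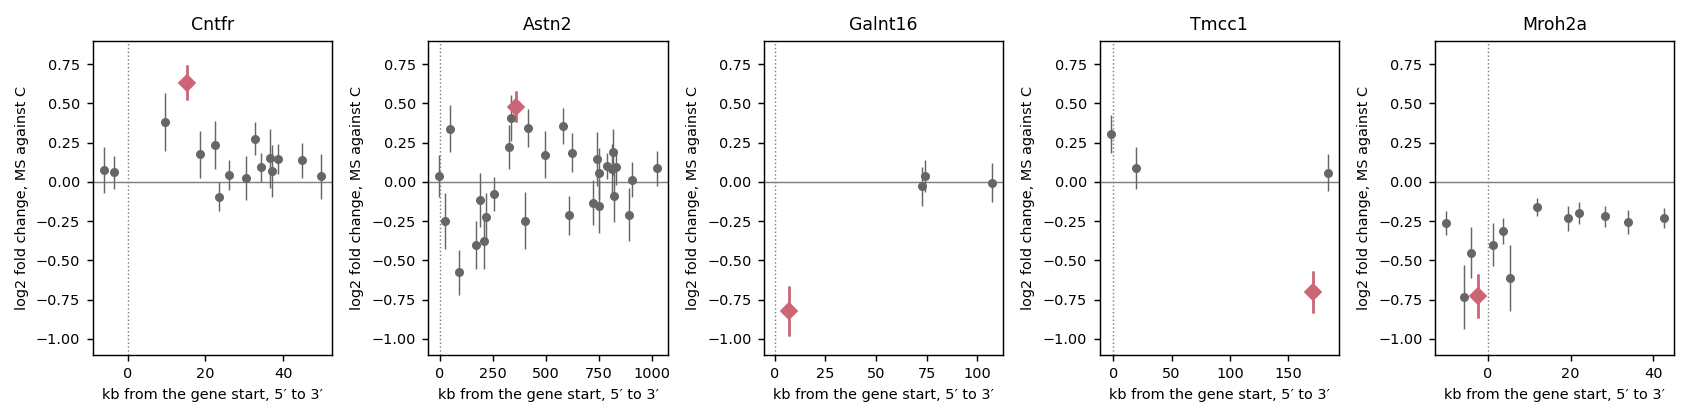
Log2 fold change of MS against C over genotypes for the 67 loci by distance of the locus centre from the gene start in kb, with bars of 1 SE. Red diamonds are the index loci, which stand apart from their neighbours at Cntfr, Galnt16 and Tmcc1, while all 13 Mroh2a loci lie below 0. Index loci were picked for the smallest p of their gene, so nothing is read from their standing apart.

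Counted over the 67 loci, 20 were called between MS and C over genotypes, 5 higher and 15 lower, where 3.63% of all loci were called (2.28% higher and 1.35% lower). The members were chosen on this contrast, so nothing is read from the count. The 5 index loci were among the 24 loci of the series with an adjusted p under 0.05, which is 0.0128% of all loci, and that is how they were picked. Of the 20 called loci 11 belonged to Mroh2a, 6 to Astn2 and 1 each to the others. At the limit, the 11th Mroh2a locus was called at -0.22 and the 10th was not, at -0.20. Within genotypes, 13 loci were called in Tph2+/+ (1.31% of all loci), 2 in Tph2+/- (0.779%) and 4 in Tph2-/- mice (1.48%).

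Genotype itself was not used to choose the loci and was tested. In Tph2-/- against Tph2+/+ mice, averaged over C and MS, 1 of the 67 loci was called, where 0.748% of all loci were. It was the 4th Astn2 locus, lower by 0.51 on the log2 scale (SE 0.18), and its adjusted p over all loci was 0.9999 in edgeR. DESeq2 also called 1 of the 67 loci, whereas limma voom and the fit with the replicate number as a block called 0. In C alone the means were 2.43 ± 0.541 CPM in Tph2-/- and 2.61 ± 0.922 CPM in Tph2+/+ mice (SD, n = 8 each), and the Tph2-/- MS group described above entered the average. In Tph2+/- against Tph2+/+ mice edgeR called 0 of the 67 loci (0.546% of all loci), 1 had an unadjusted p under 0.05 (3.47% of all loci), DESeq2 called 0 and limma voom called 1. The index loci differed between Tph2-/- and Tph2+/+ mice by -0.10 (95% interval -0.36 to 0.17) at Cntfr, 0.28 (-0.10 to 0.66) at Galnt16, 0.26 (0.02 to 0.49) at Astn2, -0.08 (-0.41 to 0.25) at Tmcc1 and -0.39 (-0.73 to -0.05) at Mroh2a. Of the 67 loci 5 had an unadjusted edgeR p under 0.05 between these genotypes, and the share over all loci is not given here. At Mroh2a 12 of the 13 loci lay below 0 and 1 above, and these loci are not independent. An adjusted p under 0.05 was reached by 0.0139% of all loci, and the smallest among the 67 was 0.9999. In size, the interval reached the MS difference of the same locus at Astn2 and Mroh2a, and not at Cntfr, Galnt16 or Tmcc1.

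The interaction of genotype with MS was tested as in the study, with GE1 as the MS effect in Tph2+/- minus that in Tph2+/+ mice, and GE2 as the MS effect in Tph2-/- minus that in Tph2+/+ mice. For GE1, edgeR called 0 of the 67 loci (0.626% of all loci), 3 had an unadjusted p under 0.05 (3.71% of all loci), and DESeq2 and limma voom called 0. The GE1 value of the Galnt16 index locus was -0.61 (SE 0.40), given without a test because the locus stood out in Tph2+/- mice. The largest GE1 value of an index locus was 0.63 at Tmcc1 (SE 0.32), and that of Mroh2a was 0.55 (SE 0.32). For GE2, edgeR called 0 loci (0.558% of all loci), 2 had an unadjusted p under 0.05 (3.36% of all loci), and DESeq2 and limma voom called 0. The GE2 value of the 4th Astn2 locus was -0.80 (SE 0.36), given without a test because the locus stood out in Tph2-/- mice. The larger MS difference at the Galnt16 index locus in Tph2+/- mice was noticed in these same counts. So were those at the Mroh2a index locus and the 4th Astn2 locus in Tph2-/- mice. None of them is shown to differ from the difference in Tph2+/+ mice. Summed over all Mroh2a loci, the MS difference was instead largest in Tph2+/+ mice, at -0.33 on the log2 scale. It was -0.13 in Tph2+/- and -0.26 in Tph2-/- mice. Of the 13 Mroh2a loci 12 had a GE1 value above 0 and 1 below, with a median of 0.24. These loci are not independent, and the large MS difference in Tph2+/+ mice, part of the choice of the gene, enters GE1. The count is therefore a description and no test. The median SE over the 67 loci was 0.32 for GE1 and 0.34 for GE2.

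The summed level of each gene was compared between genotypes by 2-sided exact permutation tests, 20 in all. The smallest p belonged to Galnt16, where Tph2-/- C mice held 11.1 ± 1.33 CPM and Tph2+/+ C mice 9.997 ± 0.484 (SD, n = 8 each; exact p = 0.0536, adjusted p = 0.993). None of the 20 passed an unadjusted limit of 0.05.

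Because sample order and MS cannot be told apart, the runs of sample numbers were compared within each condition. Late C (S42 to S48) against early C (S1 to S17) is a comparison of mice that were not separated. It called 3 of the 67 loci, where 3.29% of all loci were called. The 1st Cntfr locus was lower by 0.72 on the log2 scale (SE 0.23, edgeR adjusted p = 0.183), the 2nd Tmcc1 locus was lower by 0.48 (SE 0.16, edgeR adjusted p = 0.194), and the 5th Mroh2a locus was higher by 0.33 (SE 0.12, edgeR adjusted p = 0.285). An adjusted p under 0.05 was reached by 0.167% of all loci. No index locus was called, and the values were 0.19 at Cntfr, -0.16 at Galnt16, -0.10 at Astn2, 0.17 at Tmcc1 and 0.28 at Mroh2a.

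Early MS (S18 to S26) against late MS (S27 to S41) compares separated mice with each other. It called 11 of the 67 loci, all higher in early MS, where 11.4% of all loci were called and 8.14% were higher. Of these, 10 had an adjusted p under 0.05, beside 8.42% of all loci. Of the 8 Astn2 loci with copies 7 were called, with a median over the 8 of 0.63, and the largest value was 0.95 at the 3rd (SE 0.19, edgeR adjusted p = 0.0016). The Astn2 index locus was higher by 0.42 (SE 0.14, edgeR adjusted p = 0.0412). At Cntfr 3 loci were called, the 3rd with 0.79 (SE 0.20, edgeR adjusted p = 0.00743), but the index locus was not, at 0.06 (SE 0.15). At Mroh2a, Galnt16 and Tmcc1 edgeR called 0 loci, and 5 had an unadjusted p under 0.05 (21.6% of all loci). DESeq2 called 1 locus at Tmcc1, and limma voom called 1 at Tmcc1 and 1 at Mroh2a, the last of these lower in early MS. The index loci of these 3 genes had values of -0.20 (SE 0.22), 0.20 (SE 0.29) and -0.40 (SE 0.22).

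Set out by run, the mean CPM of the Cntfr index locus was 2.67 ± 0.862 in S1 to S17, 4.31 ± 1.20 in S18 to S26, 4.19 ± 0.676 in S27 to S41 and 2.98 ± 0.815 in S42 to S48 (SD, n = 17, 8, 14 and 7). Both MS runs lay above both C runs. At Mroh2a the means were 6.57 ± 1.51, 3.83 ± 1.70, 4.72 ± 1.86 and 7.90 ± 2.70 in the same order, and at Galnt16 they were 2.15 ± 0.675, 1.39 ± 0.580, 1.08 ± 0.692 and 1.95 ± 0.614. At Tmcc1 they were 3.41 ± 1.16, 1.79 ± 1.25, 2.45 ± 0.506 and 3.74 ± 0.888. At Astn2 they were 5.59 ± 1.39, 9.21 ± 2.79, 6.76 ± 1.28 and 5.38 ± 1.12, and the early MS run was the highest.

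**Figure D3:**
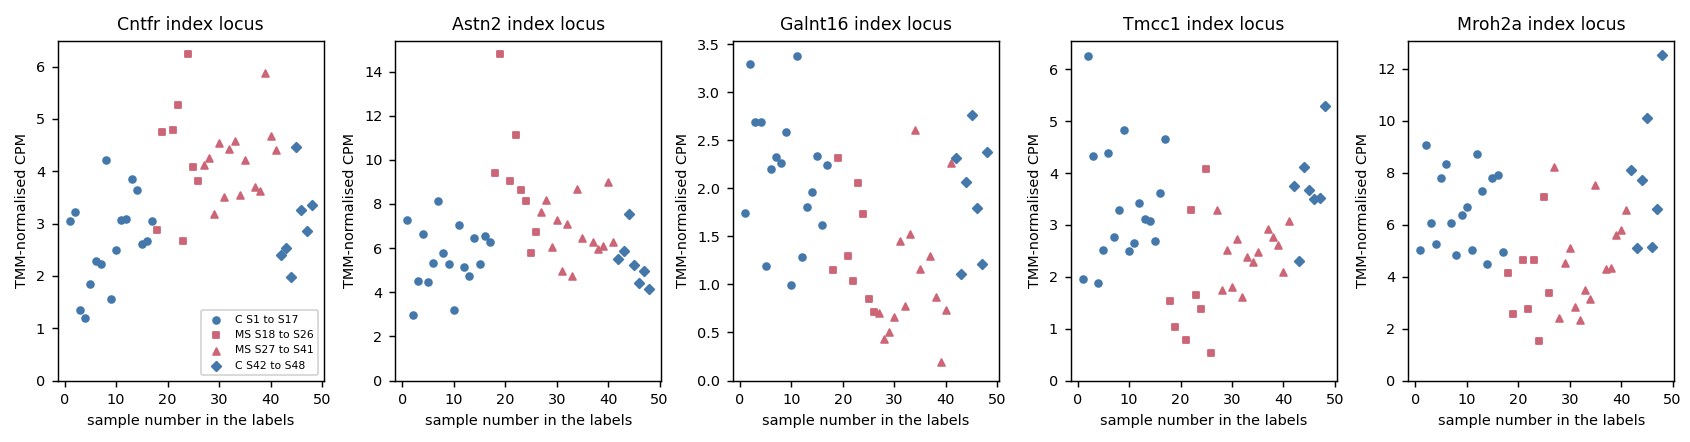
Level of each index locus (TMM-normalised CPM, linear axis from 0) against the sample number of the labels, with C in blue (circles S1 to S17, diamonds S42 to S48) and MS in red (squares S18 to S26, triangles S27 to S41). The conditions occupy separate runs of numbers, and the Astn2 level is highest in S18 to S26.

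The libraries also differed in how their counts depended on CpG density. This CpG slope is how far log2 counts change when CpG density changes by its SD. Its mean was -0.0199 ± 0.0354 for S1 to S17, 0.0885 ± 0.0853 for S18 to S26, -0.0335 ± 0.0409 for S27 to S41 and -0.0481 ± 0.0390 for S42 to S48 (SD, n = 17, 8, 14 and 7). Within the 22 MS libraries the Astn2 index level rose with the slope (Pearson r = 0.84, permutation p = 1e-05, the smallest that 100000 permutations can give, adjusted p = 0.0003; Spearman rho = 0.76, permutation p = 5e-05). Without the 2 libraries farthest from the median slope r was 0.69. The slope is itself computed from locus counts and CpG density, and 87.8% of all loci had a lower density than this locus. A positive r is therefore partly built in for such a locus, and the share of CpG-rich loci with a like r was not counted. The MS libraries also pool 2 runs that differ in slope. Nothing particular to Astn2 is read from these p-values. Within S18 to S26 r was 0.88 (exact p = 0.00677, adjusted p = 0.0826; rho = 0.69, exact p = 0.0694). It fell to 0.47 without the 2 farthest libraries, so the relation within this run rests on them. Within S27 to S41 r was 0.63 (permutation p = 0.0159, adjusted p = 0.0953), and 0.70 without the 2 farthest. None of the other relations between the slope and an index level, over 5 genes and 6 sets of libraries and 30 in all, had an adjusted p under 0.05. At Tmcc1 r was -0.55 over the MS libraries (permutation p = 0.009, adjusted p = 0.0826; rho = -0.58, permutation p = 0.00541), with -0.30 within S18 to S26 and -0.42 within S27 to S41. At Mroh2a r was -0.47 over the MS libraries (permutation p = 0.0295, adjusted p = 0.104; rho = -0.32, permutation p = 0.142), with -0.76 within S18 to S26 and -0.03 within S27 to S41. At Cntfr it was 0.35 and at Galnt16 0.23 over the MS libraries, and neither passed an unadjusted limit of 0.05. With the slope as a covariate the MS difference of the index locus was 0.57 at Cntfr, -0.86 at Galnt16, 0.30 at Astn2, -0.57 at Tmcc1 and -0.61 at Mroh2a.

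Across loci within a gene, the MS difference followed CpG density at some genes. Spearman's rho was 0.86 over the 13 Mroh2a loci and 0.51 over the 30 Astn2 loci, -0.46 over the 16 Cntfr loci and 0.25 over all 187695 loci. Loci of a gene share their libraries and are not independent, so these are descriptions. At Mroh2a the 2nd, 3rd, 4th and 7th loci, which differed most, also had the lowest levels. They held 2.18, 2.83, 2.77 and 2.28 CPM per kb, beside a median of 6.08 for the gene. Density and level cannot be told apart there. With the CpG slope as a covariate rho was 0.88 at Mroh2a and 0.07 at Astn2. The 8 Astn2 loci with copies held 2.09 to 4.11 CpG per 100 bp and the other 22 held 0.141 to 3.03, so the ranges overlapped.

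**Figure D4:**
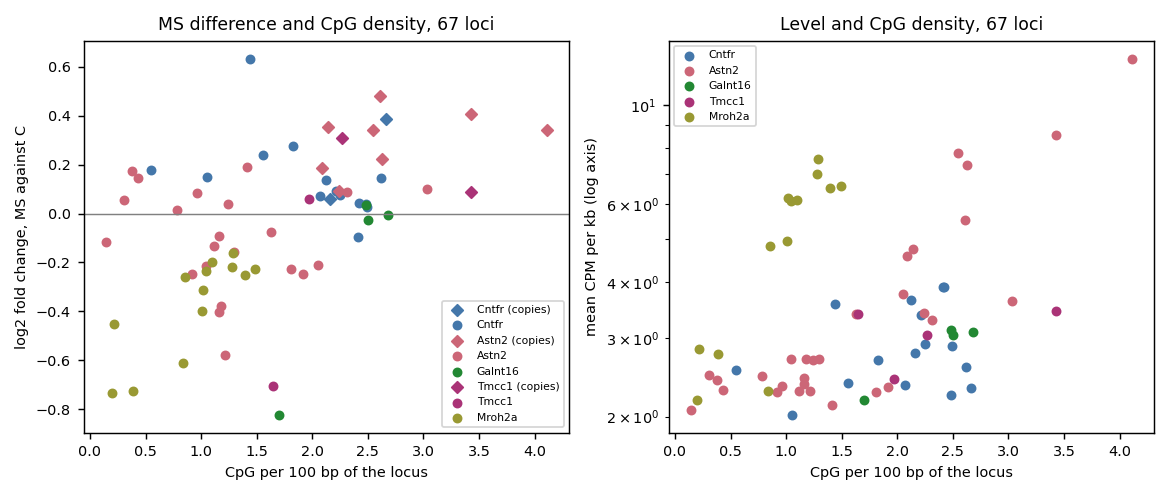
Left, log2 fold change of MS against C over genotypes against CpG per 100 bp for the 67 loci, with diamonds for loci that have copies elsewhere. Right, mean CPM per kb on a log axis against the same density. The Astn2 loci with copies sit at densities of 2.09 and more with positive differences, and the Mroh2a loci sit at 1.49 and less, below 0, with most at levels above those of other loci of like density.

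Loci of the same gene moved together from mouse to mouse to unequal degrees. After removal of the group means, the median Pearson r between loci of a gene over the 46 libraries was 0.09 at Cntfr (pairs from -0.28 to 0.53), -0.10 at Galnt16 (-0.39 to 0.17), -0.0034 at Astn2 (-0.52 to 0.90) and -0.08 at Tmcc1 (-0.62 to 0.30). At Mroh2a it was 0.58, and every one of the 78 pairs was above 0, from 0.25 to 0.86. The 13 Mroh2a loci are therefore not independent measurements.

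For each index locus the 3 loci outside the gene with the most similar mouse-to-mouse pattern were found among all loci, as Pearson's r over the same 46 libraries after removal of group means. For Cntfr these lay at or nearest to Terb1, Gm30676 and Gm37344 (r = 0.63, 0.62 and 0.62), and for Galnt16 at Gm34095, Tulp2 and Slc12a4 (r = 0.61, 0.61 and 0.61). For Astn2 they lay nearest to Ctnna2, Gm47967 and Pudp (r = 0.81, 0.80 and 0.80). For Tmcc1 they lay nearest to Gm22973, Speer4cos and Mup22 (r = 0.77, 0.77 and 0.76). For Mroh2a they lay at Speer4e and, with 2 loci, at C130026I21Rik (r = 0.84, 0.83 and 0.81). Repeats made up 88.8 to 100% of the Cntfr matches, 7.68 to 45.9% of those of Galnt16, 76.7 to 85.2% of those of Astn2, 61.8 to 100% of those of Tmcc1 and 17.6 to 21.1% of those of Mroh2a. These loci are the top of a search over all loci, and shared library properties enter such correlations. An r above 0.3 was reached by 13.4% of all loci for Astn2, 12.4% for Tmcc1 and 7.64% for Mroh2a, against 3.09% for Cntfr and 3.06% for Galnt16.

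Promoters, taken as the 250 bases before and 50 after the start in RefSeq (GRCm38), were matched for 4 of the 5 genes, all but Tmcc1. None of the member loci of these 4 genes touched a promoter of its gene. The Astn2 promoter held 23 CpGs, the 3 of Galnt16 held 17 to 31 and the 6 of Cntfr held 3 to 47, beside a median of 7 over all promoters, and the single Mroh2a promoter held 0, whereas 94.6% of all promoters held at least 1. From the gene start of the GENCODE model, the nearest locus was 2875 bp away at Cntfr, 2039 bp at Astn2, 6576 bp at Galnt16 and 729 bp at Mroh2a. No locus covers these starts, so the counts give no methylation level for them.

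Genes related to the members by pathway or family were counted as well, 55 genes with 707 loci. MS was called at 18 of these loci as higher and at 5 as lower, which is 3.25% beside 3.63% of all loci, and the median log2 fold change was 0.00058. The smallest adjusted p of the 707 was 0.119 in edgeR, at Lrp8. In the CNTF receptor pathway, 3 of 142 loci were called, all higher: Osmr, the oncostatin M receptor (0.30, SE 0.10), Lifr, which pairs with Cntfr (0.37, SE 0.13), and Il6ra, the interleukin-6 receptor (0.24, SE 0.09). Among the enzymes of mucin-type O-glycosylation, 8 of 288 loci were higher and 2 lower, with Galnt13 at 0.46 (SE 0.14) and Galnt11 at 0.24 (SE 0.07). Among the genes of neuronal migration, 4 of 127 were higher and 2 lower, with Lrp8, a reelin receptor, at 0.52 (SE 0.14) and Reln, the extracellular guidance protein itself, at 0.28 (SE 0.08). In the list of the TMCC family and of proteins that shape the endoplasmic reticulum, 3 of 65 were higher, in Atl2, Tmcc3 and Atl1. In the maestro family 1 of 85 was lower, in Mroh2b at -0.45 (SE 0.14). Without S18 to S26 the values were 0.11 at Galnt13, 0.04 at Galnt11, 0.09 at the Reln locus given above, 0.08 at Tmcc3 and -0.20 at Mroh2b. They were 0.37 at Osmr, 0.30 at Lifr, 0.22 at Il6ra, 0.32 at Lrp8, 0.22 at Atl2 and 0.26 at Atl1. Further called loci kept 0.19 at Galnt12 (0.23 with all runs) and 0.20 at Galnt17 (0.27 with all runs). Other called Reln loci stood at 0.43 and 0.06 (0.37 and 0.27 with all runs).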

How the data were processed

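MBD-seq was made from amygdala DNA of 48 mice. According to the methods of the study, reads were mapped to GRCm38 with Bowtie2 2.1.0, peaks were called with MACS, overlapping peaks were joined, and reads in them were counted with DiffBind 2.0.9. The deposited file holds these raw counts per locus, made by the authors and not normalised. Even counts prevail in the table, which happens where 2 mates of a read pair count separately, so a count is not 1 independent molecule, and the intervals and spreads cover counting error and differences between libraries together. Treatment of duplicate and repeat reads is not given in the sources used here. All columns of the table matched a sample, and 0 were left over.

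All 187695 loci were fitted together with edgeR 4.0.16 (TMM, robust quasi-likelihood F-test, 1 term per group; genotype as a term when sample runs were compared) in R 4.3.3, with Benjamini-Hochberg adjustment over all loci. The study left out 2 Tph2-/- MS libraries without naming them, and the 2 of lowest total took their place. Single values were compared with 2-sided exact permutation tests in scipy 1.17.1 on log2 CPM with a pseudocount of 0.1. The sequence of the Galnt16 index locus is not reported here. Copies were sought with minimap2 2.31-r1302. The CpG slope was taken over loci whose counts averaged 10 or more. On simulated data over 187695 loci, 98 of 100 loci changed by a log2 of 1 after MS and 65 of 100 changed by 0.6 passed the adjusted limit of 0.05, as did 11 loci that had not been changed. For Tph2-/- against Tph2+/+ mice 94 of 100 changed by 1 were recovered. The simulated libraries held no differences between runs and no CpG slope, so these numbers do not carry over to the real libraries, which differ in both. Of the unchanged simulated loci 0.915% passed the criteria of the study after MS, beside 3.63% of all loci in the real counts.

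The member genes, the related gene lists and the tests were chosen with earlier results of these data known. Named were the index locus of each gene, its neighbours, the locus of highest CPM, the locus nearest the gene start, called loci up to 5 per contrast, the 3 most similar loci, and up to 4 loci of each related list. Loci outside this rule (Trim32, the Mroh2a surroundings and the limit cases) were chosen after their values were seen. P-values rest on the spread between libraries, 1 per mouse, which holds counting error as well and takes no account of litters. Alternatives were limma 3.58.1 voom, DESeq2 1.42.0, its size factors, total counts, a mean count of 10 or more, all 48 libraries, covariates for late C and for the CpG slope, leaving out S18 to S26 or S42 to S48, and the replicate number as a block. Leaving out each library in turn and the count of index loci past the adjusted limit were added after the data were seen.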

Additional observations from a re-analysis of the deposited data

Results flagged for a closer look

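Among 60 sets of values tested for an outlying library with Dixon's ratio (index levels and summed levels of 5 genes in 6 groups), 5 held one, where chance gives about 1 in 20. In 4 of the 5 the library was Tph2+/- MS replicate 1. Its Astn2 index locus stood at 11.1 CPM, with the other 7 libraries of the group between 5.79 and 7.64. Its summed Astn2 loci reached 190.6 CPM (others 108.9 to 138.7), its summed Cntfr loci 60.7 CPM (others 44.8 to 52.1) and its summed Tmcc1 loci 16.4 CPM (others 11.1 to 13.3). The same library stands within S18 to S26, and its CpG slope was 0.157, with the other 7 of the group between -0.0795 and 0.0205. The 5th was the summed Astn2 level of Tph2-/- C replicate 1, at 153.9 CPM with the others between 102.96 and 126.9. The CpG slope of Tph2-/- C replicate 1 was 0.0564, the highest among the C libraries. A link of these outlying values to the slope was not tested. Leaving out any single library kept the MS difference of the Astn2 index locus between 0.41 and 0.51 on the log2 scale.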

How the results depend on the processing

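The direction of all 5 index loci between MS and C over genotypes was the same under the 11 alternatives: 0.57 to 0.69 at Cntfr, 0.29 to 0.54 at Astn2, -0.88 to -0.82 at Galnt16, -0.75 to -0.52 at Tmcc1 and -0.78 to -0.61 at Mroh2a. Leaving out each library in turn gave 0.59 to 0.67, 0.41 to 0.51, -0.87 to -0.76, -0.77 to -0.65 and -0.79 to -0.69 in the same order. The index loci were chosen on this contrast, and the refits share most of their libraries. A kept direction is therefore a description and no test, and so are the counts that follow. The number of index loci with an adjusted p under 0.05, 5 in the fit reported, was 1 with DESeq2, 3 with limma voom, 2 with the late C covariate, 2 with the CpG slope covariate, 0 without S18 to S26 and 1 without S42 to S48, and 5 under the others. Leaving out a run of samples also leaves fewer libraries in the fit.

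The 20 member loci called over genotypes were 10 with the CpG slope covariate, 10 without S18 to S26 and 12 without S42 to S48. In Tph2+/+ mice 13 became 8 with all 48 libraries, 7 without S18 to S26 and 7 without S42 to S48. In Tph2-/- mice 4 became 14 with all 48 libraries, that is, with Tph2-/- MS replicates 3 and 7 back in. The Astn2 index locus in Tph2-/- mice moved from 0.45 to 0.05 without S18 to S26. For Tph2-/- against Tph2+/+ mice the 1 call became 0 with limma voom and 2 with the CpG slope covariate. For Tph2+/- against Tph2+/+ mice 0 became 1 with limma voom, 1 with the CpG slope covariate and 1 without S42 to S48. For GE1 0 became 3 with total counts alone and 2 with the CpG slope covariate. Of the related loci, 23 called became 14 with the late C covariate and 13 each with the CpG slope covariate, without S18 to S26 and without S42 to S48. The cause of these shifts was not tested.

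With the replicate number as a block, 19 member loci were called over genotypes and 0 for Tph2-/- against Tph2+/+ mice. The numbers do not pair the mice: of 110 pairs of libraries with the same number in different groups, 11 correlated above 0.1 in their deviations from the group means, with a median of 0.01. Of the 5 index loci Galnt16 had the lowest counts, 2 to 40 per library.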
